A study of Homo sapiens with 30 samples.

Results

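The numbered zinc finger genes from ZNF500 to ZNF799 were examined after depletion of each subunit of negative elongation factor (NELF) in T47D cells, an established luminal breast cancer line. Members were the transcript clusters, the gene-level units of the Affymetrix exon array, whose single platform symbol was ZNF500 to ZNF799 or any numbered ZNF symbol between them. The rule gave 126 clusters of 22011, for 122 symbols, since ZNF540, ZNF678, ZNF706 and ZNF770 each had 2 clusters. A further 81 clusters carried a symbol in this range beside other symbols and were left out. RefSeq gave 122 member clusters as protein coding and 4 as transcribed pseudogenes.

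Most proteins in this range carry an array of C2H2 zinc fingers that binds DNA, and many also carry a KRAB domain. The KRAB domain recruits TRIM28 (also called KAP1), which brings the histone methyltransferase SETDB1 and other silencing factors to chromatin, often at transposable elements. Many of these genes stand in tandem clusters, chiefly on chromosome 19, and their transcripts are mostly of modest abundance and short life. NELF binds RNA polymerase II that has paused soon after initiation, and its loss can lower or raise the output of a promoter.

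Cells in all groups received 10 nM siRNA, fresh medium at 48 hours, and another 48 hours of growth in serum-containing medium before harvest. The control group carried an siRNA against luciferase, and each of the other 4 groups an siRNA to one NELF subunit, with the group named for its target: siNELF-A for NELF-A, siNELF-B for NELF-B, siNELF-C for the NELF-C protein and siNELF-E for NELF-E. Each group had 3 arrays, 15 in all, which the series text describes as technical repeats. Whether they come from separate transfections is not stated, so p-values measure the spread between these arrays only. Values are log2 of the deposited robust multi-array average (RMA). The call rule for a cluster was an adjusted p under 0.05 in limma (Benjamini-Hochberg, over all 22011 clusters) together with a change of at least 1.5-fold.

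The siNELF-B arrays stood apart from one another. Pairs of siNELF-B arrays correlated at 0.917 to 0.973 over all clusters, against 0.984 to 0.990 within the other groups, and replicate 2 correlated at 0.984 with the control arrays and at 0.945 with its own group. The siRNA targets were looked for in the same data. NELFCD, which encodes NELF-C, lay at 9.33, 9.19 and 9.23 in control and at 5.92, 5.61 and 5.97 in siNELF-C cells (log2 change -3.42, limma adjusted p = 1.67e-05). The median of 15 NELFE probe sets differed by -2.61 in siNELF-E cells and that of 15 NELFA probe sets by -0.61 in siNELF-A cells. The NELFA median differed by -0.06 to 0.10 after the other siRNAs. In siNELF-A cells the medians of NELFCD and NELFE, which were not targeted, differed by as much (-0.63 and 0.61). No probe set was found under the symbol NELFB, so the siNELF-B knockdown was not checked. All 9 luminal markers were well expressed, with control means between 7.69 (ESR1) and 12.33 (KRT8), while PTPRC and PECAM1, markers of leukocytes and endothelium, lay at 1.43 and 1.96. Of these 9 markers 3, 1, 2 and 1 were called lower in siNELF-A, B, C and E cells, beside 2.83%, 4.19%, 5.3% and 4.04% of all clusters. The list medians were -0.27, -0.27, -0.27 and 0.06.

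The zinc finger members were mostly dim. Their mean levels over the 15 arrays ran from 1.30 to 7.79 with a median of 4.63, against a median of 4.72 for all clusters. There were 39 members below 3.90, the 40th percentile of cluster means, and 18 below 2.70, the 25th percentile. Where both levels compared lay below 3.90, the log2 difference of the readings is given but no fold, since no background signal was measured. Related zinc finger genes can share probe sequence, and the probes themselves were not examined here.

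Few members changed. In siNELF-A cells 1 member was called lower (2.83% of all clusters were) and 0 higher (0.495%). In siNELF-B cells 5 were lower (4.19%) and 0 higher (0.204%), in siNELF-C cells 6 lower (5.3%) and 2 higher (0.922%), and in siNELF-E cells 5 lower (4.04%) and 2 higher (1.44%). These counts are 0.794%, 3.97%, 4.76% and 3.97% of the members for the lower calls, at or below the shares of all clusters. For the higher calls they are 0%, 0%, 1.59% and 1.59%, above the shares of all clusters in siNELF-C and siNELF-E. At an unadjusted limma p under 0.05, 1 member was higher in siNELF-A and 2 in siNELF-B cells. For the mean of the 4 knockdowns, 4 members were lower (4.46%) and 0 higher (0.35%), with 7 higher at an unadjusted p under 0.05. Altogether 112 members were called in no knockdown, 10 were lower in at least 1 and 4 were higher in at least 1. Counted by overlap alone, all 3 arrays lay below all 3 controls for 34, 27, 43 and 29 members in siNELF-A, B, C and E cells, beside 22.5%, 16.6%, 31.3% and 21.1% of all clusters. They lay above them for 10, 2, 13 and 14 members, beside 12%, 5.57%, 15.1% and 13.5% of all clusters. The members' shares were 27%, 21.4%, 34.1% and 23% below and 7.94%, 1.59%, 10.3% and 11.1% above.

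These counts rested on a pair of siNELF-B arrays. With siNELF-B replicates 2 and 3 left out, siNELF-B is a single array whose spread is taken from the other groups, and 45 members were called, among them all 14 of those called with every array. The lower counts were then 11, 26, 23 and 9 in siNELF-A, B, C and E cells, beside 8.97%, 17.8%, 14.8% and 7.81% of all clusters, and the higher counts 0, 1, 4 and 4, beside 1.35%, 1.37%, 2.3% and 2.86%. The members' shares for lower calls were 8.73%, 20.6%, 18.3% and 7.14%, above those of all clusters in siNELF-B and siNELF-C and below them in siNELF-A and siNELF-E. Without siNELF-B replicate 2 alone, 51 members (40.5%) were called in siNELF-B cells, beside 33.8% of all clusters. Without replicate 3 alone, 24 (19%) were called in siNELF-C cells, beside 15.5% of all clusters.

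The median change of the members was -0.16 after siNELF-A, -0.35 after siNELF-B, -0.12 after siNELF-C and -0.03 after siNELF-E, but each of these medians turned positive when arrays were centred on their 75th percentile, a scaling that moved the median of all clusters by up to 0.47. The medians of all clusters on the deposited scale were -0.03, -0.14, -0.08 and -0.02. The members' distance from all clusters depended on brightness: among clusters at or above the 40th percentile the 87 members had medians of -0.16, -0.40, -0.13 and -0.03, against -0.12, -0.39, -0.23 and -0.06 for all such clusters. The 185 clusters of numbered ZNF genes outside the range had medians of -0.14, -0.38, -0.19 and -0.07.

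**Figure D1:**
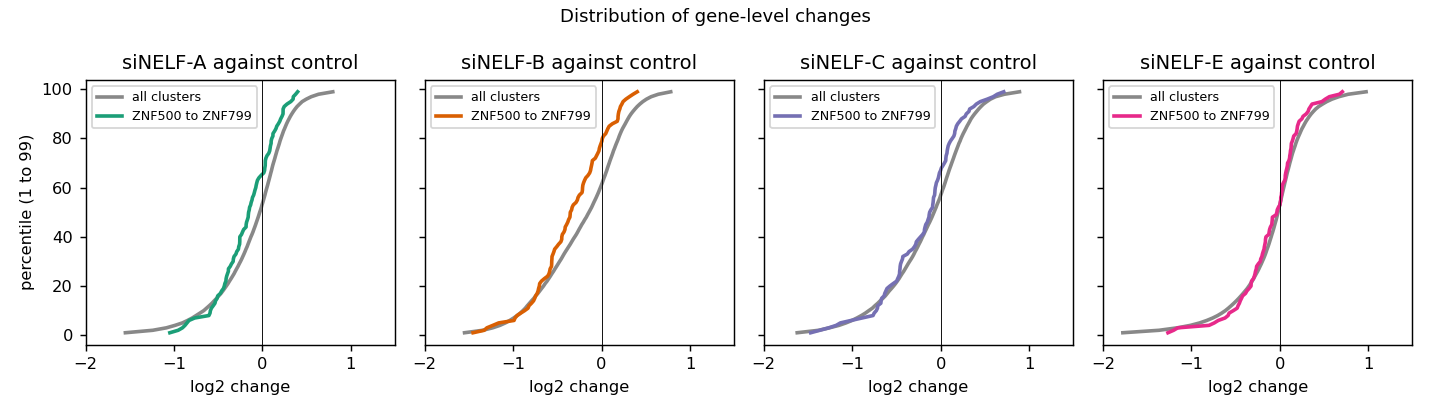
Percentiles 1 to 99 (vertical axis) of the gene-level log2 change against control (horizontal axis), one panel per knockdown, for the 126 members (coloured) and all 22011 clusters (grey). The member curves lie left of the grey curves over the middle percentiles in siNELF-A and siNELF-B (medians -0.16 and -0.35 against -0.03 and -0.14) and close to them in siNELF-E. At percentiles 1 and 99 they lie inside the grey curves in each panel. At percentile 5 they lie left of the grey curves in siNELF-B and siNELF-C (-1.16 and -1.13 against -1.09 and -1.07).

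Array by array, the median difference of the members from the control mean was -0.11, -0.13 and -0.24 on the siNELF-A arrays and -0.34, -0.04 and -0.66 on the siNELF-B arrays. For siNELF-C it was -0.15, -0.14 and -0.12, and for siNELF-E -0.08, -0.03 and -0.02. The siNELF-B replicates thus spanned nearly the whole range seen in the series, and replicate 2 lay among the control arrays, which ran from -0.05 to 0.05.

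**Figure D2:**
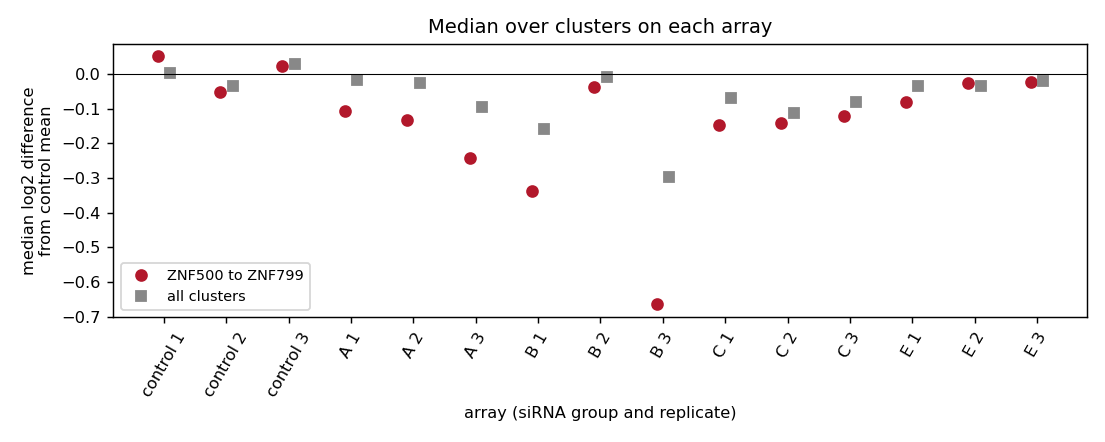
Median log2 difference from the control mean on each of the 15 arrays (vertical axis, log2 units), for the 126 members (circles) and all clusters (squares). SiNELF-B replicate 3 is lowest for both (-0.66 and -0.30), and siNELF-B replicate 2 lies near 0 (-0.04 and -0.01).

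ZNF681, a KRAB zinc finger gene, was the only member called in all 4 knockdowns. Its values were 3.14, 2.73 and 2.999 on the control arrays, 1.74, 1.79 and 1.77 after siNELF-A, 1.45, 2.17 and 1.39 after siNELF-B, 1.55, 1.88 and 1.66 after siNELF-C, and 1.89, 1.89 and 1.66 after siNELF-E. Every knockdown array lay below every control array. The log2 changes were -1.19, -1.29, -1.26 and -1.14 (SE 0.193; limma adjusted p = 0.00481, 0.00625, 0.00327 and 0.00318). All 4 calls were kept in each of 21 alternatives of scaling, blocking and left-out arrays, and with array quality weights. Both filters on dim clusters remove the gene, whose mean over all arrays was 1.98. With medians of its exon-level probe sets in place of the gene-level values, all 4 calls were lost and the sign turned in siNELF-A and siNELF-B (0.17, 0.06, -0.05 and -0.13, limma adjusted p = 0.802, 0.889, 0.916 and 0.9). In a fit of only the groups compared, the siNELF-B call was lost (0.392) and the others kept (0.00226 to 0.00434). The gene was dim, with a control mean of 2.96 ± 0.21 (SD, n = 3) and knockdown means from 1.67 to 1.81, so the changes are between levels near the bottom of the array's range. Of its 4 exon-level probe sets, 3 were lower than control in each knockdown, with median changes over the 4 of -0.37, -0.50, -0.31 and -0.28, and the fourth was higher by up to 0.87. None of the 4 was called.

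ZNF695, another gene of the KRAB class, fell in the B, C and E knockdowns. It lay at 4.93, 4.55 and 4.99 in control, 3.98, 4.26 and 3.97 after siNELF-A, 3.72, 4.20 and 3.60 after siNELF-B, 3.49, 3.34 and 3.79 after siNELF-C, and 3.34, 3.42 and 3.70 after siNELF-E. No knockdown array reached the lowest control. The falls were 1.98-fold after siNELF-B (log2 change -0.98, limma adjusted p = 0.0215), 2.43-fold after siNELF-C (-1.28, 0.00299) and 2.53-fold after siNELF-E (-1.34, 0.00104; SE 0.192 in each), and the value after siNELF-A missed the threshold (-0.75, adjusted p = 0.0509). The calls in siNELF-C and siNELF-E were kept in all 21 alternatives, under both dim filters, with array weights and in a fit of only the groups compared, but lost with medians of exon-level probe sets (-1.26 and -1.25, adjusted p = 0.0938 and 0.127). That in siNELF-B was kept in 15 and lost without control replicate 1 or 3 or siNELF-B replicate 1 or 3 (adjusted p = 0.0541 to 0.11), with 75th percentile centring and with the interquartile range as covariate (0.000668 to 0.143 over the 21). It was also lost in a fit of only control and siNELF-B (0.392) and with exon-level medians (-0.55, 0.378). Of its 15 probe sets, 12, 15, 14 and 15 were lower than control in siNELF-A, B, C and E.

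ZNF680 lay at 6.34, 6.63 and 7.06 in control, 5.92, 5.80 and 5.75 after siNELF-A, 5.13, 6.54 and 4.39 after siNELF-B, 4.97, 5.38 and 5.20 after siNELF-C, and 5.16, 5.61 and 5.61 after siNELF-E. All arrays but siNELF-B replicate 2 were below the controls. It was called in siNELF-C cells (2.82-fold lower, log2 change -1.495, SE 0.399, limma adjusted p = 0.0423), whereas the changes of -0.85, -1.32 and -1.22 in siNELF-A, B and E had adjusted p of 0.297, 0.0659 and 0.108. The siNELF-C call was lost on leaving out any 1 array other than siNELF-B replicates 2 and 3 (adjusted p = 0.0546 to 0.171 where lost), with the interquartile range as covariate (0.0782) and with the replicate number as a block (0.0529). All 7 of its probe sets were lower than control in each of the 4 knockdowns. Without siNELF-B replicates 2 and 3, ZNF680, ZNF681 and ZNF695 were the 3 members called lower in all 4 knockdowns.

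ZNF675, also known as TIZ, an inhibitor of TRAF6 signalling, is the neighbour of ZNF681 in the RefSeq gene order. It lay at 4.61, 4.14 and 4.67 in control, 3.14, 4.01 and 3.50 after siNELF-A, 2.54, 4.10 and 2.30 after siNELF-B, 3.68, 3.26 and 2.94 after siNELF-C, and 4.24, 4.10 and 4.22 after siNELF-E. The siNELF-E arrays overlapped the controls, and siNELF-B replicate 2 lay just under them. It was called in siNELF-B cells (2.81-fold lower, log2 change -1.49, SE 0.389, limma adjusted p = 0.0484), with changes of -0.92, -1.18 and -0.29 in siNELF-A, C and E (adjusted p = 0.241, 0.0857 and 0.826). The call was kept in 2 of 21 alternatives and lost without any 1 array other than siNELF-B replicate 2 (adjusted p = 0.0592 to 0.165) and under each scaling, the interquartile range covariate and the replicate block (0.000267 to 0.499 over the 21).

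**Figure D3:**
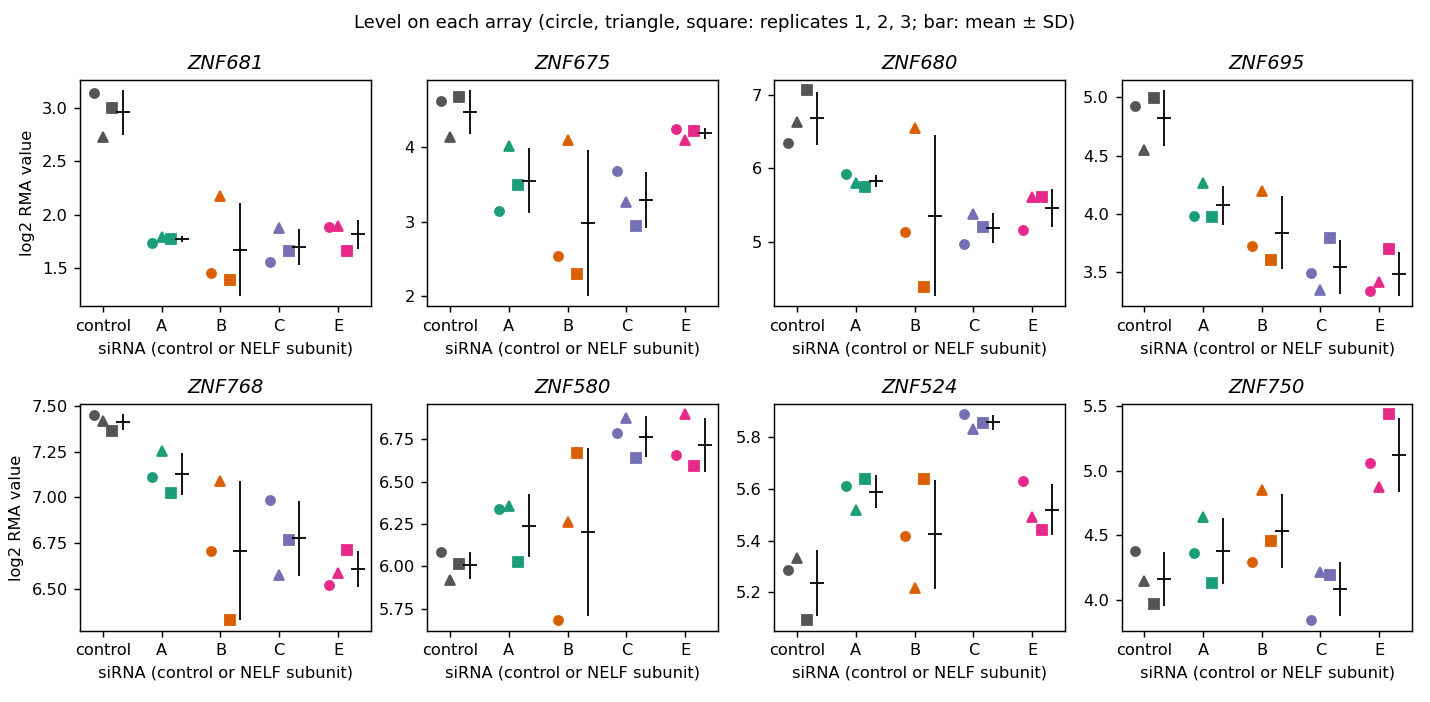
Level (log2 RMA value) of 8 members on each of the 15 arrays, by siRNA group, with circle, triangle and square for replicates 1, 2 and 3 and a bar for the mean ± SD (n = 3). The knockdown arrays of ZNF681 and ZNF695 all lie below the controls, the 3 siNELF-C arrays of ZNF580 and ZNF524 lie above them, and siNELF-B replicate 2 (orange triangle) sits closest to the control level in several panels.

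The promoters of these 4 genes share a short stretch of sequence, shown here because each of the 4 was called lower in at least 1 knockdown. RefSeq promoter sequences (build GRCh38.p14, 250 bases before to 50 after the start) were found for 99 of the 122 member symbols. The windows below are the 150 bases before the annotated start, 5′ to 3′ on the gene's strand, at chr19:23687213-23687362 (minus strand) for ZNF675, chr7:64563072-64563221 (minus) for ZNF680, chr19:23758892-23759041 (minus) for ZNF681 and chr1:247008058-247008207 (minus) for ZNF695. Capitals mark GTCCAATCAGGC.
ZNF675: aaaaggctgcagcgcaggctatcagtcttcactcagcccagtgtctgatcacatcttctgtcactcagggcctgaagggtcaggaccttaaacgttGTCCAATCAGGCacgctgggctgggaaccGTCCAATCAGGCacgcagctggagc
ZNF680: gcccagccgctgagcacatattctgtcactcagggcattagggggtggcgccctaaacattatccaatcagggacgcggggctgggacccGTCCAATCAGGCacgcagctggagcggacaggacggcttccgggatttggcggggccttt
ZNF681: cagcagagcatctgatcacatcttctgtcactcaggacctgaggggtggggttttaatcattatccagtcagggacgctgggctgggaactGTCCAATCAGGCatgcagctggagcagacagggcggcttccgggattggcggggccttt
ZNF695: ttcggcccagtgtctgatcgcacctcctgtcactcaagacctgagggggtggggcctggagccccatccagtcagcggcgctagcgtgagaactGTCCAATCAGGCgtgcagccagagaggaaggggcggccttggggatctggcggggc

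The window of ZNF675 holds the stretch at 2 places, beginning 54 and 25 bases before the start, and the other windows at 1 place, beginning 60, 59 and 56 bases before it in ZNF680, ZNF681 and ZNF695. Aligned end to end, the windows of ZNF680 and ZNF681 were identical at 83.6% of positions, ZNF681 and ZNF695 at 73.4% and ZNF680 and ZNF695 at 67.5%. The ZNF675 window aligned at 48.1% to 54.9% with these, beside 42.9% to 51.8% for pairs against or between ZNF768 and ZNF580. The windows end at the annotated start, and an end-to-end alignment counts an offset as gaps, so this value does not show ZNF675 as unrelated. The ZNF675 and ZNF681 windows also share tctgatcacatcttctgtcactcagg and acgctgggctgggaac. Both lie in the same order before the stretch, or in ZNF675 before its copy nearer the start.

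The stretch was not chosen blind. It is 1 of 10 strings searched, on both strands, while the promoters of members that fell were read with their changes known, and it was retained because all 4 member promoters with it belonged to called genes. That count of 4 of 4 is therefore set by the choice and gets no test. Looser strings were less clean: GTCCAATCAG was in 7 member promoters, of which ZNF555, ZNF556 and ZNF678 belonged to genes called in no knockdown, and CCAATCA was in 19, of which 4 belonged to genes called lower. The longer AACTGTCCAATCAGG was in 4 member promoters, of which 2 belonged to called genes. CTGTCCAATCAGGC and GACCTGAGG were each in 2 member promoters, those of the called genes ZNF681 and ZNF695. TGTCACTCA, which lies elsewhere in the windows, was also in all 4 of these promoters. It was in 7 member promoters, of which ZNF563, ZNF669 and ZNF678 belonged to genes called in no knockdown. CCAATCAG and CACTCA were in 14 and 17, of which 4 each belonged to called genes, and CCTGAGGGG in 3, of which 2 did. GTCCAATCAGGC occurred in 30 of 27305 promoters (0.11%), of which 25 were numbered ZNF genes.

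Outside the range, 7 numbered ZNF genes with a cluster of their own carried the stretch (ZNF43, ZNF107, ZNF136, ZNF138, ZNF195, ZNF208 and ZNF254); they were looked at in the same search. Their changes were negative for 7, 7, 7 and 5 of the 7 in siNELF-A, B, C and E, with medians of -0.56, -0.76, -0.80 and -0.23. In limma, 0 were called after siNELF-A and siNELF-B (lowest adjusted p = 0.0944 and 0.075, both ZNF43), 2 after siNELF-C (ZNF43, log2 change -1.26, adjusted p = 0.0263; ZNF107, -1.44, 0.0113) and 1 after siNELF-E (ZNF43, -1.55, 0.00804). SLAIN1, a dim cluster with the stretch that is no zinc finger gene, moved by -0.03 to 0.05. The 976 clusters outside the range whose promoters held CCAATCA had medians of -0.09, -0.33, -0.21 and -0.05 in siNELF-A, B, C and E. Of these, 3.69%, 6.25%, 10.8% and 10.0% were called lower, beside 2.83%, 4.19%, 5.3% and 4.04% of all clusters. The 30 outside clusters with GTCCAATCAG, which the stretch contains, had medians of -0.29, -0.43, -0.29 and -0.18. Of them 0%, 3.33%, 13.3% and 6.67% were called lower. The sets of 976 and 30 both include the 8 outside clusters with the full stretch, so they are not independent of the 7 genes above. The 52 with TGTCACTCA had medians of -0.07, -0.29, -0.16 and 0.03, with 1.92%, 3.85%, 9.62% and 1.92% called lower. A match describes the letters in the window, and nothing was measured about a factor there.

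**Figure D4:**
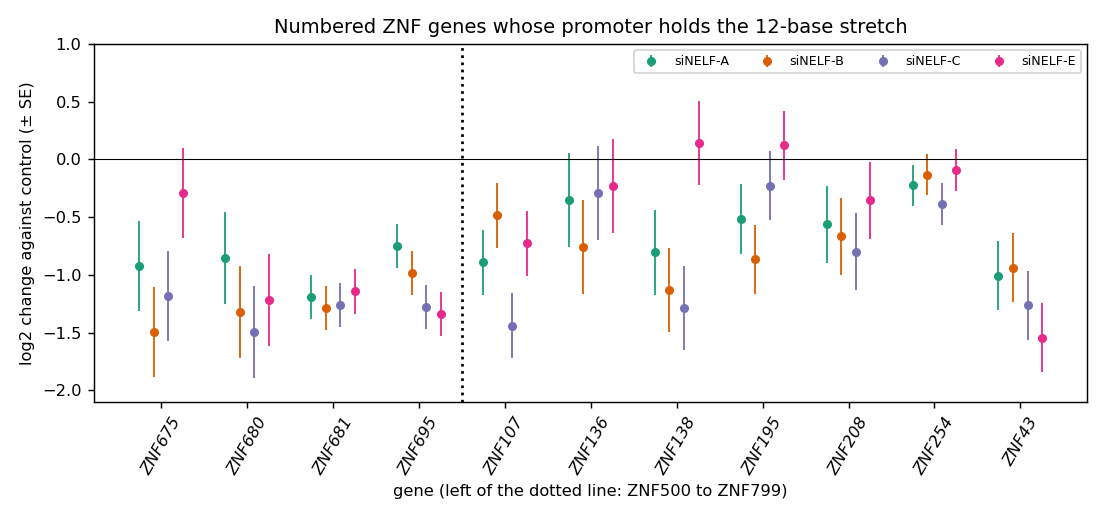
Log2 change against control (± SE, vertical axis) in each knockdown for the numbered ZNF genes whose promoter holds the 12-base stretch, members left of the dotted line. The string was chosen with the members' changes known; the 7 genes to the right have medians of -0.56, -0.76, -0.80 and -0.23 in siNELF-A, B, C and E, and ZNF138 and ZNF195 lie above 0 in siNELF-E.

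As a group, the 99 member promoters differed from all 27305 in composition. CCGGAAG, an ETS core, was in 34.3% of them against 10.7% of all, a GC box (GGGCGG) in 59.6% against 44.6% and CCAAT in 44.4% against 35.7%, while TATAAA was in 4.04% against 11.95%. All motifs were searched on both strands, and CCAAT lies within the stretch above. The median number of CpG was 23 against 14. CCGGAAG was in 33.3% of the 90 member promoters of genes called in no knockdown and in 37.5% of the 8 of genes called lower. The 1 promoter of a gene called higher also held it. The difference was not tested. Promoters of numbered ZNF genes outside the range were not compared, so these values do not show the composition as particular to the members.

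ZNF768 fell in the B, C and E knockdowns. It lay at 7.45, 7.42 and 7.36 in control, 7.11, 7.25 and 7.03 after siNELF-A, 6.71, 7.09 and 6.33 after siNELF-B, 6.99, 6.58 and 6.77 after siNELF-C, and 6.53, 6.59 and 6.71 after siNELF-E, so that each knockdown array was below each control. The falls were 1.62-fold (log2 change -0.70, limma adjusted p = 0.0438), 1.55-fold (-0.63, 0.0468) and 1.74-fold (-0.80, 0.0148; SE 0.173). The siNELF-B call was lost without any 1 array other than siNELF-B replicate 2 (adjusted p = 0.0529 to 0.146) and the siNELF-C call without any 1 other than siNELF-B replicates 2 and 3 (0.0574 to 0.183). Both were also lost under each scaling, with the interquartile range as covariate and with the replicate block, where the log2 changes came down to -0.20 in siNELF-B and -0.27 in siNELF-C (adjusted p up to 0.325 and 0.155). The siNELF-E call was lost without any 1 of the controls or siNELF-E replicate 1 or 2 (0.0511 to 0.0673) and kept in 16 of 21 alternatives. Its promoter has no GTCCAATCAGGC.

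Other members were lower in 1 knockdown each. ZNF589, a KRAB gene, lay at 4.85, 4.82 and 5.10 in control and 4.08, 4.68 and 3.74 in siNELF-B cells (1.69-fold lower, log2 change -0.76, limma adjusted p = 0.0491). ZNF592 lay at 6.97, 6.73 and 6.82 in control and 6.17, 6.00 and 6.33 in siNELF-C cells (1.59-fold lower, -0.67, limma adjusted p = 0.0461). ZNF529 lay at 4.74, 4.93 and 4.91 in control and 4.35, 3.93 and 4.41 in siNELF-C cells (1.55-fold lower, -0.63, limma adjusted p = 0.0379). In each of these 3 the knockdown arrays were below all control arrays.

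In siNELF-E cells the transcribed pseudogene ZNF788P lay at 4.37, 4.31 and 4.61, against 5.51, 5.62 and 5.70 in control (2.27-fold lower, log2 change -1.18, limma adjusted p = 0.0114). ZNF738 lay at 4.37, 3.99 and 4.14, against 4.98, 4.74 and 5.01 (1.68-fold lower, -0.74, limma adjusted p = 0.0478). Neither overlapped its controls. ZNF788P kept its call in 19 of 21 alternatives, losing it without control replicate 3 or siNELF-E replicate 2 (adjusted p = 0.0545 to 0.0549).

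The calls of ZNF589, ZNF592, ZNF529 and ZNF738 depended on which arrays were used and on the scaling or block. That of ZNF589 was lost without any 1 array other than siNELF-B replicate 2 (adjusted p = 0.0576 to 0.177). Those of ZNF592 (0.0611 to 0.173) and ZNF529 (0.0509 to 0.161) were lost without any 1 other than siNELF-A replicate 1 or 3 or siNELF-B replicate 2 or 3. ZNF738 lost its call without any 1 other than siNELF-B replicate 2 or 3 or siNELF-C replicate 1 (0.0541 to 0.186). The calls of ZNF589, ZNF592 and ZNF529 were also lost under each of the 3 scalings, with the interquartile range as covariate and with the replicate block. There the smallest changes were -0.26, -0.32 and -0.28. The ZNF738 call was lost with the block (0.0836).

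**Figure D5:**
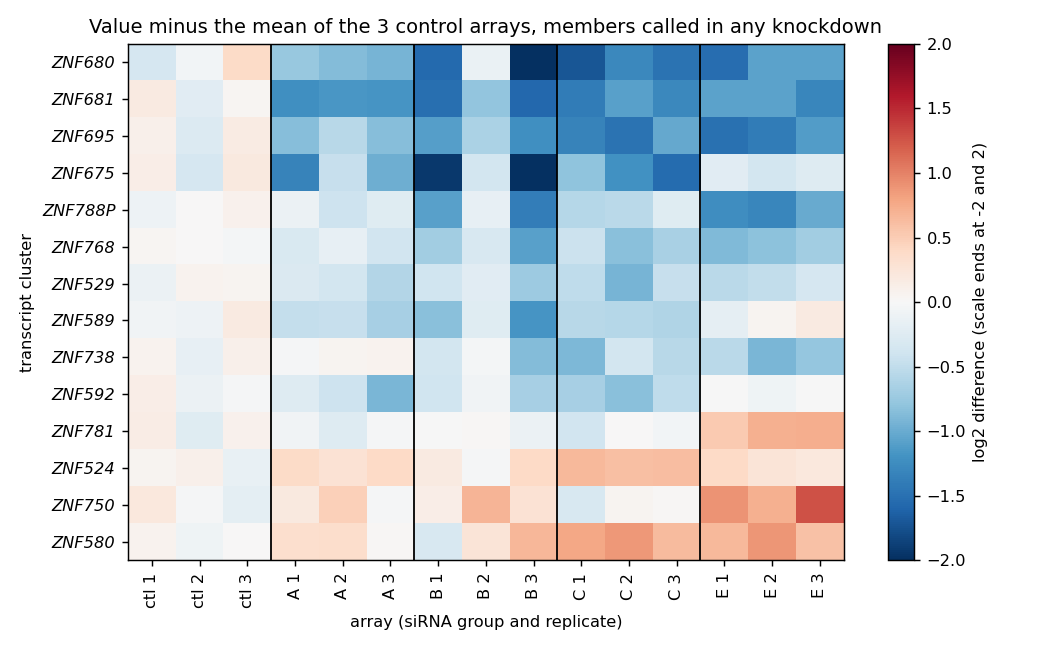
Value minus the mean of the 3 control arrays (colour, log2 units, scale ends at -2 and 2) for the 14 members called in at least 1 knockdown (rows) on the 15 arrays (columns, vertical lines between groups). The 10 members that fell are blue in the knockdowns that called them, the 4 that rose are red there, and the column of siNELF-B replicate 2 is pale in most rows.

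The members that rose did so in siNELF-C or siNELF-E cells. ZNF580 lay at 6.08, 5.92 and 6.02 in control, 6.34, 6.36 and 6.03 after siNELF-A, 5.68, 6.26 and 6.67 after siNELF-B, 6.79, 6.87 and 6.64 after siNELF-C, and 6.66, 6.90 and 6.59 after siNELF-E. All siNELF-C and siNELF-E arrays were above the controls, while the siNELF-B arrays lay on both sides of them. The rise was 1.69-fold in siNELF-C (log2 change 0.76, SE 0.206, limma adjusted p = 0.0442), and the value of 0.71 in siNELF-E missed the threshold (0.0653). The siNELF-C call was lost without 11 of the 15 arrays, taken 1 at a time (adjusted p = 0.0584 to 0.156), and kept without siNELF-A replicate 3 or any siNELF-B array. It was also lost with the interquartile range as covariate (0.116) and with the replicate block (0.0733).

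ZNF524 stands near ZNF580 in the RefSeq gene order, with ZNF865, ZNF784 and ZNF581 between them. It lay at 5.29, 5.33 and 5.09 in control, 5.61, 5.52 and 5.64 after siNELF-A, 5.42, 5.22 and 5.64 after siNELF-B, 5.89, 5.83 and 5.85 after siNELF-C, and 5.63, 5.49 and 5.44 after siNELF-E. Only the siNELF-B arrays overlapped the controls. It rose 1.54-fold after siNELF-C (0.62 in log2, SE 0.126, limma adjusted p = 0.0135), a call kept in 17 of 21 alternatives and lost without control replicate 3 or siNELF-C replicate 1 or 2 (0.0526 to 0.0752) and with the interquartile range as covariate. Of the other members in this stretch of genes, ZNF579 moved by 0.59 in siNELF-C cells (limma adjusted p = 0.0631), ZNF784 by 0.07 (0.817) and ZNF581 by 0.06 (0.86).

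ZNF750, a factor that drives epidermal differentiation, lay at 4.38, 4.15 and 3.97 in control and 5.06, 4.88 and 5.44 in siNELF-E cells. The siNELF-E arrays were above all controls, and the siNELF-C arrays (3.84, 4.21 and 4.19) overlapped them. It rose 1.95-fold after siNELF-E (0.96 in log2, SE 0.202, limma adjusted p = 0.0125), a call lost without control replicate 3 or siNELF-E replicate 3 (0.0661 to 0.0685) and kept in 19 of 21 alternatives. ZNF781, a dim transcribed pseudogene outside the rule for named members, was the other called higher in siNELF-E cells, at 2.41, 2.60 and 2.61 against 2.04, 1.66 and 1.98 (log2 change 0.65, limma adjusted p = 0.0167).

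The brightest members called in no knockdown were ZNF664, ZNF787, the brighter ZNF706 cluster and ZNF703. ZNF703, an amplified gene of luminal breast cancers, lay between 6.77 and 7.11 on all 15 arrays, and its log2 changes were 0.03, 0.01, -0.02 and -0.08 (SE 0.111) with overlapping groups. ZNF664 lay at 8.07, 7.98 and 8.07 in control and 7.44, 7.62 and 7.37 in siNELF-B cells; it passed the p threshold there but not the 1.5-fold threshold (log2 change -0.56, 1.48-fold, limma adjusted p = 0.0236). ZNF787 moved by 0.10 to 0.19 with no call. The brighter ZNF706 cluster lay at 7.34, 7.25 and 7.35 in control and 6.73, 7.06 and 5.21 in siNELF-B cells (log2 change -0.98, limma adjusted p = 0.0879), replicate 3 being far below the other pair.

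On the deposited scale with every array, members were called between knockdowns only where siNELF-E was on 1 side. Among the 6 pairs, 0 members were called in siNELF-B against siNELF-A (3.46% of all clusters lower, 0.818% higher), siNELF-C against siNELF-A (1.66% and 1.21%) or siNELF-C against siNELF-B (0.536% and 1.6%). At an unadjusted limma p under 0.05, 13, 4 and 3 were lower and 3, 7 and 11 higher in these pairs. The shares of all clusters were 14.8%, 9.31% and 4.54% lower and 4.86%, 6.22% and 10% higher. In siNELF-E against siNELF-A, B and C, 5, 1 and 11 members were lower and 13, 21 and 10 higher by that measure. All clusters there gave 6.81%, 5.67% and 7.34% lower and 8.92%, 19.2% and 12.2% higher. Relative to siNELF-A, siNELF-E cells had 1 member lower and 1 higher (1.49% and 2.56% of all clusters). Relative to siNELF-B they had 0 lower and 4 higher (1.16% and 5.74%), and relative to siNELF-C 1 lower and 5 higher (1.59% and 3.59%). In these pairs the members' shares were not above those of all clusters, except 3.97% against 3.59% for the last.

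ZNF652, a transcriptional repressor studied in breast tumours, showed the largest such difference. It lay at 6.44, 6.40 and 6.27 in control, 6.87, 7.11 and 5.18 after siNELF-B, 5.26, 4.71 and 5.72 after siNELF-C, and 6.90, 6.55 and 7.21 after siNELF-E. The siNELF-C arrays were below and the siNELF-E arrays above all controls, but neither change against control passed the test (-1.14 and 0.51, limma adjusted p = 0.107 and 0.635). The siNELF-E level exceeded that of siNELF-C by 3.16-fold (log2 difference 1.66, SE 0.407, limma adjusted p = 0.0335), a call kept in 12 of 21 alternatives (0.000631 to 0.148).

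The dimmer ZNF706 cluster lay at 4.60, 4.50 and 5.08 after siNELF-E, against 3.15, 4.32 and 2.51 after siNELF-B and 3.45, 3.11 and 3.50 after siNELF-C. These groups did not overlap, and the differences were 1.40 and 1.37 (limma adjusted p = 0.035 and 0.0439). The brighter ZNF706 cluster was called in neither of these pairs. ZNF750 was higher in siNELF-E than in siNELF-C cells by 1.04 (0.00943). ZNF510 and ZNF589 were higher after siNELF-E than after siNELF-B by 1.03 and 0.77 (0.0335 and 0.0345), and ZNF738 was lower after siNELF-E than after siNELF-A by a log2 difference of -0.78 (0.0473), all in limma. The ZNF750 difference was called in 19 of 21 alternatives, those of ZNF706 in 11 against siNELF-B and 7 against siNELF-C, that of ZNF510 in 10, and those of ZNF589 and ZNF738 in 8 each.

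Exon usage compares how a probe set moved with how the rest of its gene moved. It was tested with limma's diffSplice for 738 probe sets of 70 member genes. In siNELF-A cells 1 probe set was called lower (0.117% of all 155958 probe sets tested) and 0 higher (0.0923%), with 17 higher at an unadjusted p under 0.05. In siNELF-B cells 5 were lower (0.445%) and 3 higher (0.393%), in siNELF-C cells 1 lower (0.264%) and 1 higher (0.277%), and in siNELF-E cells 0 in either direction (0.0564% and 0.0718%), with 16 lower and 16 higher at an unadjusted p under 0.05. The calls concerned 9 probe sets in 8 genes. The members' shares in siNELF-A, B, C and E were 0.136%, 0.678%, 0.136% and 0% lower and 0%, 0.407%, 0.136% and 0% higher. They were above those of all probe sets in both directions in siNELF-B and for lower calls in siNELF-A. With 1 array left out, they were above in 14 of 15 fits for siNELF-B. Over the 4 knockdowns this held in 17 of 60 such fits and 3 of 16 other alternatives. Without siNELF-B replicate 2, 101 member probe sets (13.7%) were called in siNELF-B cells, beside 12.2% of all probe sets. Without replicate 3 the number was 1 (0.136%), beside 0.303%.

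The call that held in all 19 alternatives run for exon usage was in ZNF598, an E3 ubiquitin ligase that senses collided ribosomes. Its probe set 3676382 read 5.23, 4.83 and 4.81 in control, 3.77, 3.24 and 3.04 in siNELF-A, and 2.98, 3.37 and 2.53 in siNELF-B cells, with no overlap. In siNELF-C it read 3.51, 4.79 and 4.77, and in siNELF-E 3.37, 4.97 and 3.26, each group with replicates on both levels. Its relative change was -1.98 after siNELF-B (diffSplice adjusted p = 0.0005) and -1.68 after siNELF-A (0.0119), while the ZNF598 cluster moved by 0.04 and -0.03 after siNELF-A and siNELF-B. The siNELF-A call was lost without any 1 control array or siNELF-A replicate 2 or 3.

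ZNF787 was the other gene with a probe set called in a pair of knockdowns. Its probe set 3871747 read 5.39, 4.03 and 4.55 in control, 6.18, 5.49 and 7.83 in siNELF-B, and 6.53, 7.04 and 6.55 in siNELF-C cells, both above all controls. The relative changes were 1.92 and 2.05 (diffSplice adjusted p = 0.0138 and 0.00876), and they were lost without control replicate 2 or 3, siNELF-B replicate 3 (siNELF-B) or siNELF-C replicate 2 (siNELF-C). ZNF664 had 2 adjacent-numbered probe sets with lower relative values in siNELF-B cells (-1.94 and -1.61, adjusted p = 0.00265 and 0.0207), both lost without siNELF-B replicate 3 and the latter also without any 1 control or siNELF-B replicate 1. ZNF746, which encodes PARIS, a parkin substrate, had 1 higher in siNELF-B (2.497, 0.00257), also lost without that array or control replicate 2 or 3, and ZNF777 had 1 lower in siNELF-C (-1.84, 0.0443), kept in 8 of 19 alternatives. The remaining probe sets, in ZNF621, ZNF692 and ZNF784, were called in siNELF-B cells and kept in 14, 6 and 2 of 19 alternatives.

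The cofactors that KRAB zinc finger proteins use were examined beside them. TRIM28, the KRAB corepressor, moved by -0.56, -0.28, -0.38 and -0.47 in siNELF-A, B, C and E (limma adjusted p = 0.104, 0.289, 0.186 and 0.154) and SETDB1 by -0.30, -0.76, -0.06 and -0.13 (0.643, 0.111, 0.91 and 0.913). Of 21 clusters of the KAP1 corepressor list, 0, 1, 4 and 5 were called lower in siNELF-A, B, C and E, with list medians of -0.47, -0.48, -0.57 and -0.27. These counts are 0%, 4.76%, 19% and 23.8% of the list, beside 2.83%, 4.19%, 5.3% and 4.04% of all clusters. The listed genes called in siNELF-E were the histone methyltransferase SUV39H1 (log2 change -2.34, limma adjusted p = 0.000601), UHRF1 (-1.78, 0.00386), CBX5, which encodes HP1 alpha (-1.63, 0.000529), the maintenance methyltransferase DNMT1 (-1.11, 0.0119) and DNMT3B (-0.65, 0.0115).

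Other zinc finger classes are given by the same counts. Of 34 clusters whose symbols begin with ZBTB, most of them BTB zinc finger genes, 0, 2, 3 and 0 were called lower in siNELF-A, B, C and E (5.88% and 8.82% for the B and C knockdowns). The 34 include ZBTB8OS and ZBTB7C-AS2, which are not zinc finger genes and were not called. Of 17 SCAN clusters 0, 1, 0 and 1 were lower (5.88% where 1), and of 27 KLF and SP clusters 1 in each knockdown (3.7%). The KLF and SP list took any symbol of KLF or SP followed by a number, so it need not hold zinc finger genes only. The shares of all clusters were 2.83%, 4.19%, 5.3% and 4.04%. A list of 6 clusters held the HUSH and MORC genes MORC2, MPHOSPH8, PPHLN1 and TASOR, which silence repeats, and TRIM24 and TRIM33 of the TIF1 family. Its 1 call was TRIM24 in siNELF-A cells (log2 change -1.84, limma adjusted p = 0.0103), and no HUSH or MORC gene was called.

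Members were also divided by their RefSeq neighbours among protein-coding genes. Of the 74 with a numbered ZNF gene as neighbour, 1, 4, 5 and 4 were called lower (1.35%, 5.41%, 6.76% and 5.41%). Of the 48 without one, 0, 1, 1 and 0 were (0%, 2.08%, 2.08% and 0%). Among all clusters the shares called lower in siNELF-A, B, C and E were 2.83%, 4.19%, 5.3% and 4.04%. The difference between members with and without such a neighbour was not tested. The 4 pseudogenes have no place in that order, and 1 of them, ZNF788P, was lower in siNELF-E cells.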

How the data were processed

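RNA from T47D cells was depleted of ribosomal RNA and measured on Affymetrix exon arrays. The deposited values are log2 RMA values made by the authors with ArrayAssist from core exons on build hg18, per the labels; the software version is not given in the sources used here. They were used without further scaling. Symbols come from the platform annotation (14432 of 22011 clusters carry 1 symbol), updated through RefSeq, and hg18 positions were not used. Groups and replicate numbers come from the labels.

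One limma 3.58.1 model (R 4.3.3, lmFit and eBayes) with a mean per group was fitted to all 15 gene-level arrays, with 4 contrasts against control, their mean and 6 pairs. Exon usage was tested with diffSplice on probe sets above the 25th percentile of means, in genes above the 40th with at least 3 such probe sets. The code was tested on simulated data. Same-numbered arrays of different groups did not deviate together (correlations of -0.30 to 0.20), so replicate numbers were not used as pairs. The precision is limited by the number of arrays.

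The members, gene lists and alternatives were chosen with earlier results of these data known. Fits of named calls with dim filters, array weights, only the groups compared or medians of exon-level probe sets, and refits of calls between knockdowns, were added after seeing the data. Named members were those called in all 4 knockdowns; up to 5 called members per direction and knockdown that did not overlap control and reached the 40th percentile; the 4 brightest called in none; up to 3 per pair; and up to 5 exon usage calls per knockdown. TRIM28, SETDB1 and the NELF genes were named whatever their values, and other names were chosen after their values were seen. Promoters were read from RefSeq (GRCh38.p14) with Python 3.11.15 and aligned with Biopython 1.88. The 10 strings searched in them were chosen after the values were seen. A planned grouping of members by protein domains was not run, and protein sequences were not used here.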

Additional observations from a re-analysis of the deposited data

How the results depend on the processing

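In limma, no call of a named member against control reversed in any of 21 alternatives of scaling, blocking and left-out arrays, and the ZNF681 calls and the ZNF695 calls in siNELF-C and siNELF-E held in each. Further fits of these 20 calls were added after seeing the data. With medians of exon-level probe sets 17 were lost, the ZNF681 calls among them (0.17 and 0.056 in siNELF-A and B, the sign reversed), and those of ZNF680, ZNF788P and ZNF750 were kept. Fitting only the groups compared lost 5, all the siNELF-B calls. Array weights lost 1, of ZNF529, and the dim filters lost 0 of the 16 and 15 calls they left in. None of 12 member calls between knockdowns reversed in 21 settings, also added later, and each was kept in 7 to 20. The number of members called depended on the processing. With every array it was 1, 5, 8 and 7 in siNELF-A, B, C and E against control and 4 for the mean of the knockdowns. Leaving out 1 array at a time gave 1 to 7, 1 to 51, 2 to 24, 3 to 10 and 2 to 18 (up to 5.56%, 40.5%, 19%, 7.94% and 14.3% of members, beside up to 8.8%, 33.8%, 15.5%, 9.48% and 13.1% of all clusters). Over all contrasts, the members' share exceeded that of all clusters in 18 of 165 such fits and 10 of 88 others. Without siNELF-B replicates 2 and 3 it was 11, 27, 27, 13 and 13, and with array quality weights (gene-by-gene method) 9, 40, 27, 13 and 13. Medians of exon-level probe sets gave 0, 2, 3, 2 and 1. Quantile normalization gave 4 in siNELF-A and 2 in siNELF-B, median centring 2, 2 and 5 in siNELF-A, B and C, 75th percentile centring 4 and 3 in siNELF-A and B, and the interquartile range as covariate 5, 1, 12 and 2 in siNELF-A, B, E and the mean. Fitting the groups of a contrast alone gave 7, 0 and 26 in siNELF-A, B and C; a 2-fold threshold gave 2, 3 and 3 in siNELF-B, C and E; leaving out dim clusters gave 10 in siNELF-B under either filter. The cause of these shifts was not tested. For siNELF-B against A, C against A, E against A, C against B, E against B and E against C the counts were 0, 0, 2, 0, 4 and 6. They became 3, 4, 7, 2 and 7 (all but the last pair) with quantile normalization and 1, 3, 8, 5 and 8 with 75th percentile centring. They were 9, 7, 10, 7, 17 and 16 without siNELF-B replicates 2 and 3, and 0 to 32, 0 to 6, 1 to 8, 0 to 13, 0 to 37 and 1 to 14 with 1 array left out. Exon usage calls (1, 8, 2 and 0 in siNELF-A, B, C and E) became 7, 23, 21 and 5 without that pair of arrays and 0 to 3, 1 to 101, 0 to 13 and 0 to 2 with 1 array left out; quantile normalization gave 18 and 4 in the B and C knockdowns.

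The labels number replicates 1 to 3 in every group, but these numbers did not pair the arrays (3 of 30 same-numbered pairs correlated above 0.1). With the replicate number as a block, 1, 2, 3, 6 and 4 members were called in siNELF-A, B, C, E and the mean, 1, 2 and 2 in siNELF-E against A, B and C, and 1 probe set for exon usage in siNELF-C.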
